A study of Caenorhabditis elegans with 10 samples.

Results

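Mitochondrial ribosomal proteins are encoded in the nucleus, made in the cytosol and imported into mitochondria, where they build the ribosome that translates the few membrane proteins encoded by mitochondrial DNA. Some of them, such as the protein encoded by mrpl-11, descend from ribosomal proteins of bacteria, and others, such as that of mrps-26, were added in the mitochondrial lineage. In Caenorhabditis elegans, loss of the small subunit protein MRPS-5 is known to lengthen life and to switch on the mitochondrial unfolded protein response, and fasting is known to reshape mitochondrial metabolism.

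The genes described here are those with an array probe set annotated to a single gene symbol that begins with mrpl- or mrps- and a number, taken as 1 probe set per gene, the one with the highest mean over all arrays. This gave 59 genes of 17118 that have a single-symbol probe set, 34 of the large subunit (mrpl) and 25 of the small subunit (mrps). By their numbers, 36 carry names shared with bacterial ribosomal proteins (large subunit up to 36, small subunit up to 21) and 23 carry names used for proteins specific to mitochondria. A reference annotation lists 71 genes under this naming rule, and the other 12, mrpl-13, mrpl-21 and mrps-7 among them, were not analysed here. The mitochondrial DNA products that this ribosome makes were not analysed here either, since 0 of the 12 listed have a single-symbol probe set.

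The study measured total RNA of adult animals of 2 mutant strains, 1 with a mutation in mek-1 and 1 with a mutation in mlk-1, on 10 arrays of 1 colour. The products of both genes are kinases, and MLK-1 acts upstream of MEK-1 in a stress-activated MAP kinase cascade. On adult day 2 the animals were transferred to plates that either carried OP50-1 bacteria as food (fed) or carried none (fasted). They were collected 2 days later, on adult day 4. The mek-1 strain has 3 fed and 3 fasted arrays, and the mlk-1 strain 2 of each. The labels give no allele, all groups carry a mutation, and no wild type was analysed here. They also do not say whether arrays of a group came from separate cultures, so p-values measure the spread between these arrays, which may be technical. Values are arbitrary intensities of a probe set, which cannot be compared between genes. Changes are differences of log2(intensity + 16), so 1 is a doubling of a bright probe set, and a dim one is understated.

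The median intensity of all probe sets lay between 70.5 and 74.9 on the 10 arrays. The mek-1 probe set read 66.5 to 139.3 in the 6 mek-1 arrays and 1137 to 1387 in the 4 mlk-1 arrays. The 2 probe sets of mlk-1 had no lower range in the mlk-1 strain (167.3 to 231.7 against 128.2 to 196.8, and 131.6 to 145.8 against 84.6 to 156.3) and therefore do not check that label. The type of mutation is not given in the labels. Markers of germline, intestine, body wall muscle and neurons were all present, and of the 55 measured only unc-31 stayed under an intensity of 50 on every array. The second principal component of all probe sets set both mek-1 arrays numbered 3 apart, at -30.1 (fed) and -30.9 (fasted).

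Most of the 59 genes gave clear signal. Their mean intensity over the 10 arrays had a median of 519 and ran from 25.5 (mrps-31) to 1704 (mrps-11), against a median of 75.4 for all probe sets, and 57 of the 59 lay above that median. The 2 dim genes were mrpl-45 and mrps-31, which encode mitochondria-specific proteins of the large and the small subunit. Intensities of mrps-31 ran from 20 to 31.3, close to the floor of the table, just above 16, so little can be read from its changes.

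One array stood apart in these genes before any comparison was made. On the array labelled mek-1 fed 3 the median deviation of the 59 genes from their own means over 10 arrays was -0.32, while that of all probe sets was -0.038. This array held the lowest of the 10 values in 45 of the 59 genes (76.3%), which is the case for 25.5% of all probe sets. The 45 genes comprised 28 of the large and 17 of the small subunit. Against the mean of the other 2 mek-1 fed arrays its values differed by a median of -0.38, from -0.71 (mrps-28) to 0.43 (mrpl-45), and 57 of 59 lay below 0.

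The gene mrpl-11, which encodes a large subunit protein shared with bacteria, followed the mean of the other 58 most closely. Its intensity in mek-1 animals was 625.7, 591.8 and 408.8 fed and 605.3, 606.8 and 547.0 fasted, and in mlk-1 animals 535.9 and 562.9 fed and 596.9 and 495.4 fasted. The third mek-1 fed array was the lowest of the 10, and the values of all 4 groups overlapped.

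**Figure D1:**
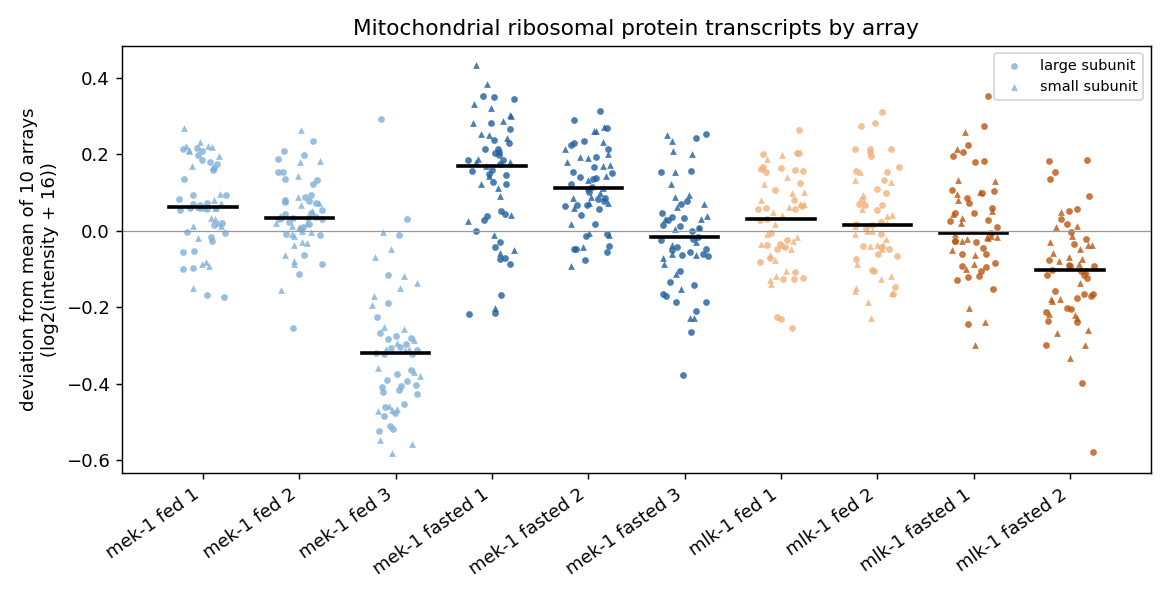
Deviation of each of the 59 genes from its own mean over 10 arrays (vertical axis, log2(intensity + 16)) on each array (horizontal axis), with circles for large subunit genes, triangles for small subunit genes and a bar at the median of the 59. The median lies at -0.32 on mek-1 fed 3 and between -0.10 and 0.17 on the other 9 arrays.

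The same array also differed in markers of tissues. Its median deviation was 1.26 over 12 body wall muscle markers and -0.35 over 20 germline markers, each the most extreme of the 10 arrays for that list. The 3′ to 5′ ratio of the actin control, a measure of RNA length that is lower for longer RNA, was 1.06 (log2) on this array. On the others it was 1.38 to 1.78, and in 3 of 5 such controls this array was the lowest. The part of tissue makeup and of RNA quality in the low values of the 59 genes was not tested. In whole animals, fewer cells of a type and less RNA per cell cannot be told apart. Median changes over all 59 genes that rest on this array are given with and without it, and so are some counts. Medians by subunit, counts at an unadjusted p, counts of intervals and some counts above 0 are given with it only.

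The first comparison asks what fasting did to these transcripts in mek-1 mutants. No gene of the 59 passed limma's test at an adjusted p of 0.05, where 4.54% of all probe sets did. At an unadjusted p of 0.05, 9 of 59 passed, all higher in fasted animals, where 18.3% of all probe sets passed in either direction. The median change was 0.15, against 0.042 for all probe sets, and 50 of the 59 lay above 0, against 61.5% of all probe sets. By subunit the median was 0.14 in the large (27 of 34 above 0) and 0.17 in the small subunit (23 of 25 above 0). All 15 small subunit genes with names shared with bacteria lay above 0. Without mek-1 fed 3, mrps-9 (-0.147), mrps-18B (-0.022) and mrps-16 (-0.001) among them lay below 0.

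The largest positive values belonged mostly to small subunit genes. The gene mrps-2 encodes a small subunit protein shared with bacteria. It read 964.7, 771.8 and 556.9 in mek-1 fed and 1109.0, 952.5 and 877.3 in mek-1 fasted arrays, a change of 0.38 ± 0.18 (SE, n = 3 and 3, limma adjusted p = 0.306). The groups overlapped, and the third fed array was the lowest.

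Next in size were mrps-17 (0.38 ± 0.16, limma adjusted p = 0.234), mrps-14 (0.34 ± 0.13, adjusted p = 0.213) and mrps-15 (0.32 ± 0.12, adjusted p = 0.203), all small subunit genes with names shared with bacteria. The large subunit gene mrpl-49, specific to mitochondria, had a value of 0.32 ± 0.14 (adjusted p = 0.271). The lowest adjusted p belonged to mrps-26 (0.108), at a change of 0.27 ± 0.08. Its intensity was 140.0, 125.9 and 127.4 in mek-1 fed and 161.8, 159.9 and 162.7 in mek-1 fasted arrays, so every fasted value lay above every fed value. At the other end, the values of mrps-31 (-0.16 ± 0.08), mrpl-22 (-0.084 ± 0.089), mrps-22 (-0.073 ± 0.13), mrpl-35 (-0.067 ± 0.098) and mrpl-15 (-0.051 ± 0.092) were all within 2 standard errors of 0.

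The groups did not overlap in 12 genes with fasted higher (20.3% of the 59, against 12.7% of all probe sets) and in 1 with fasted lower, mrps-31 (8.88% of all probe sets). The 12 were mrpl-9, mrpl-16, mrpl-38, mrpl-41, mrpl-44, mrpl-49, mrps-6, mrps-14, mrps-15, mrps-21, mrps-26 and mrps-27. Without mek-1 fed 3 the same 12 genes stayed apart, but the share over all probe sets then was 21%, and 6 genes were apart with fasted lower (14.4% of all probe sets).

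Fed and fasted mek-1 arrays of the same number deviated together, so a fit with the number as a block was set beside this result. It called 5 genes higher in fasted animals, mrpl-41, mrps-2, mrps-11, mrps-14 and mrps-21, with limma adjusted p from 0.0284 to 0.0466. That is 5 of 59 where 7.76% of all probe sets were called higher, a share close to the background. The median difference within pairs was 0.08 in pair 1, 0.05 in pair 2 and 0.34 in pair 3, and 40, 41 and 54 genes lay above 0. In 34 genes (57.6%) the fasted array was above the fed one in every pair, against 33.9% of all probe sets. In 3 genes (mrpl-22, mrps-22 and mrps-31) it was below in every pair, against 18% of all probe sets. In pairs 1 and 2 alone the same 34 genes qualified, against 45.1% of all probe sets.

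The size of the mek-1 result depended on single arrays. Without mek-1 fed 3 the median was 0.014, with 32 genes above and 27 below 0, and 0 genes called. That fit keeps its same-numbered partner, mek-1 fasted 3. Without both mek-1 arrays numbered 3 the median was 0.084. Without mek-1 fed 1, fed 2 or fasted 3 the median was 0.24, 0.21 and 0.22. Germline markers moved in the same direction as the 59 genes here, with 19 of 20 above 0, a median of 0.16 and 0 called by limma (3 at an unadjusted p of 0.05), and without mek-1 fed 3 their median was 0.036. The summed intensity of these 20 markers was 33172 to 44950 in mek-1 fed and 38664 to 49543 in mek-1 fasted arrays, with none under 50 on every array. By limma's test 6 of 11 intestine markers (6 without mek-1 fed 3), 5 of 12 muscle markers (3 without it) and 1 of 12 neuron markers fell, and the median of the neuron list was -0.012. Their part in the result was not tested.

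The second comparison is fasting in mlk-1 mutants. Here too 0 of 59 genes passed limma's test (1.37% of all probe sets), and 1, mrpl-44, passed at an unadjusted p of 0.05 (12.1% of all probe sets). With the pair numbers as a block 0 passed as well (5.84% of all probe sets). At an unadjusted p of 0.05 the block gave 4, and the matching share of all probe sets is not given here. The median was -0.073 against 0.036 for all probe sets, and 16 of 59 genes lay above 0 against 59.3% of all probe sets. It was -0.090 in the large subunit (9 of 34 above 0) and -0.036 in the small subunit (7 of 25 above 0).

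The gene mrpl-44 encodes a mitochondria-specific protein of the large subunit that is related to ribonuclease III. It read 1283.4 and 1104.0 in mlk-1 fed and 1049.7 and 762.5 in mlk-1 fasted arrays, a change of -0.41 ± 0.16 (n = 2 and 2, limma adjusted p = 0.335). Both fasted values lay below both fed values. The other 2 probe sets of mrpl-44 gave 0.038 ± 0.12 and 0.099 ± 0.15, so its probe sets disagree on the sign.

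Other low values in fasted mlk-1 animals were mrpl-51 (-0.31 ± 0.15), mrps-15 (-0.27 ± 0.15), mrpl-28 (-0.26 ± 0.16) and mrpl-15 (-0.25 ± 0.11), with limma adjusted p between 0.416 and 0.605. The mitochondria-specific large subunit gene mrpl-51 read 1514.4 and 1469.8 fed and 1184.4 and 1216.1 fasted, with no overlap. The largest positive values were mrpl-55 (0.14 ± 0.15), mrpl-40 (0.090 ± 0.16), mrps-33 (0.072 ± 0.11), mrpl-18 (0.055 ± 0.16) and mrps-11 (0.055 ± 0.19), each smaller than its error.

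In mlk-1 the groups did not overlap in 15 genes with fasted lower (25.4%, against 16.3% of all probe sets) and in 3 with fasted higher (mrpl-48, mrps-21 and mrps-33, against 28.9% of all probe sets). Of the 15, 10 encode large and 5 small subunit proteins. In both pairs fasted lay below fed in 21 genes (35.6%, against 23.7% of all probe sets) and above it in 10 (39.6% of all probe sets). Pair 1 had a median of 0.02 with 34 genes above 0, and pair 2 a median of -0.11 with 13 above 0. The negative median rested on the second fasted array. Without it the median was 0.004, and without the first fasted array it was -0.11, without the first fed array -0.058 and without the second fed array -0.042.

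**Figure D2:**
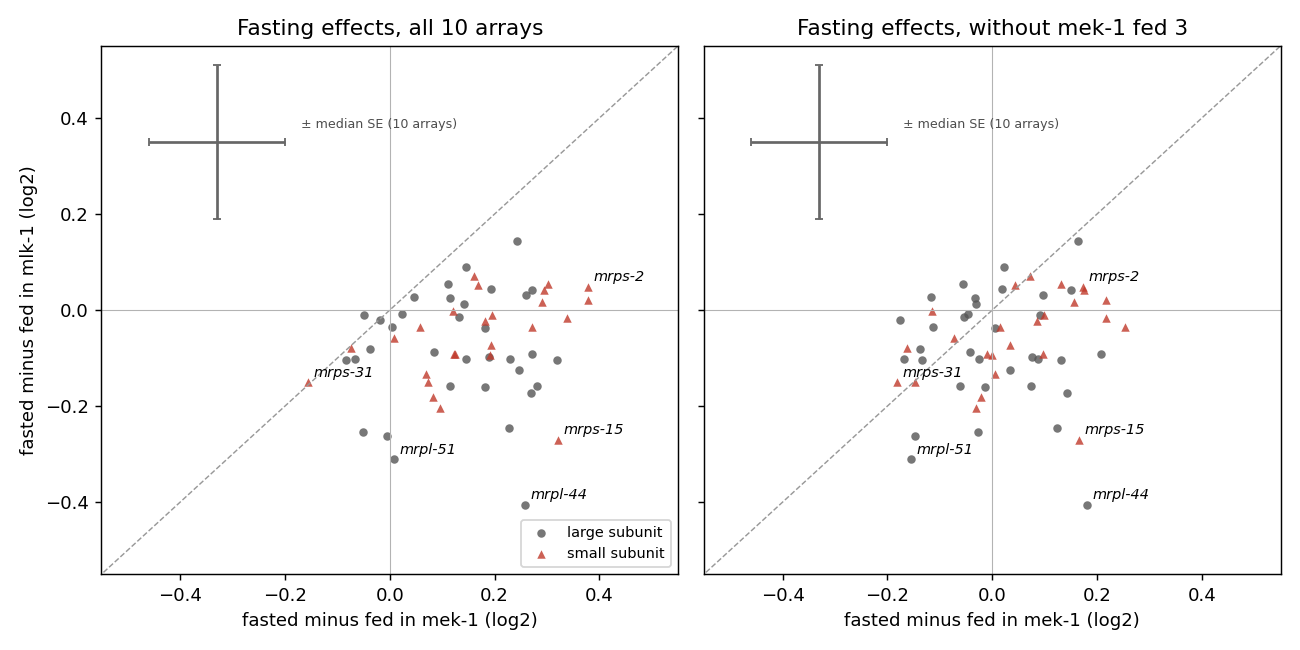
Change with fasting in mek-1 (horizontal axis, log2) against that in mlk-1 (vertical axis, log2) for each of the 59 genes, from all 10 arrays (left) and without mek-1 fed 3 (right), with a cross for the median standard error and a dashed line of equal change. On the left 57 of 59 genes lie below the dashed line, and on the right 41 do.

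Whether fasting acted differently in the 2 strains was tested as the difference of both effects. Of the 59 genes, 0 passed limma's test (0.0754% of all probe sets), and 5 passed at an unadjusted p of 0.05, all more positive in mek-1 (3.74% of all probe sets in either direction). With the block 0 passed (0.222% of all probe sets), and 9 passed at an unadjusted p of 0.05. The share of all probe sets at that unadjusted threshold with the block is not given here, so the 9 cannot be set against a background. The difference was above 0 in 57 of 59 genes, with a median of 0.22, against 49.3% of all probe sets and a median of -0.0028. The exceptions were the dim genes mrpl-45 (-0.040 ± 0.23) and mrps-31 (-0.005 ± 0.13). Without mek-1 fed 3 the median was 0.097 and 41 genes lay above 0, and without the second mlk-1 fasted array the median was 0.14. Without both mek-1 arrays numbered 3 it was 0.157.

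The largest differences were those of mrpl-44 (0.66 ± 0.20, limma adjusted p = 0.989), mrps-15 (0.59 ± 0.19), mrpl-16 (0.47 ± 0.16), mrpl-38 (0.44 ± 0.20) and mrpl-34 (0.44 ± 0.28), the last 4 at an adjusted p of 1. Of these, mrps-15, mrpl-16 and mrpl-34 have names shared with bacteria, and mrpl-38 is specific to mitochondria. The small subunit gene mrps-15 read 480.2, 478.8 and 342.5 fed and 551.1, 544.8 and 522.9 fasted in mek-1, and 437.7 and 465.1 fed and 380.6 and 362.8 fasted in mlk-1. Its fasted values lay above all fed values in mek-1 and below all fed values in mlk-1.

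In 11 genes (18.6%) fasted was above fed in all 3 mek-1 pairs and below fed in both mlk-1 pairs, as in 3.29% of all probe sets. They were mrpl-9, mrpl-16, mrpl-34, mrpl-38, mrpl-44, mrpl-49, mrpl-50, mrps-10, mrps-15, mrps-18C and mrps-35. For mrpl-44 this holds for the probe set used, while its other 2 changed by 0.038 and 0.099 with fasting in mlk-1. With pairs 1 and 2 of mek-1 alone the same 11 genes qualified, against 4.82% of all probe sets. Germline markers showed the same sign in this difference, with 20 of 20 above 0, a median of 0.13 and 0 called by limma (1 at an unadjusted p of 0.05), and with mek-1 fed 3 left out 12 of 20 and a median of 0.037. Their part in the result was not tested.

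**Figure D3:**
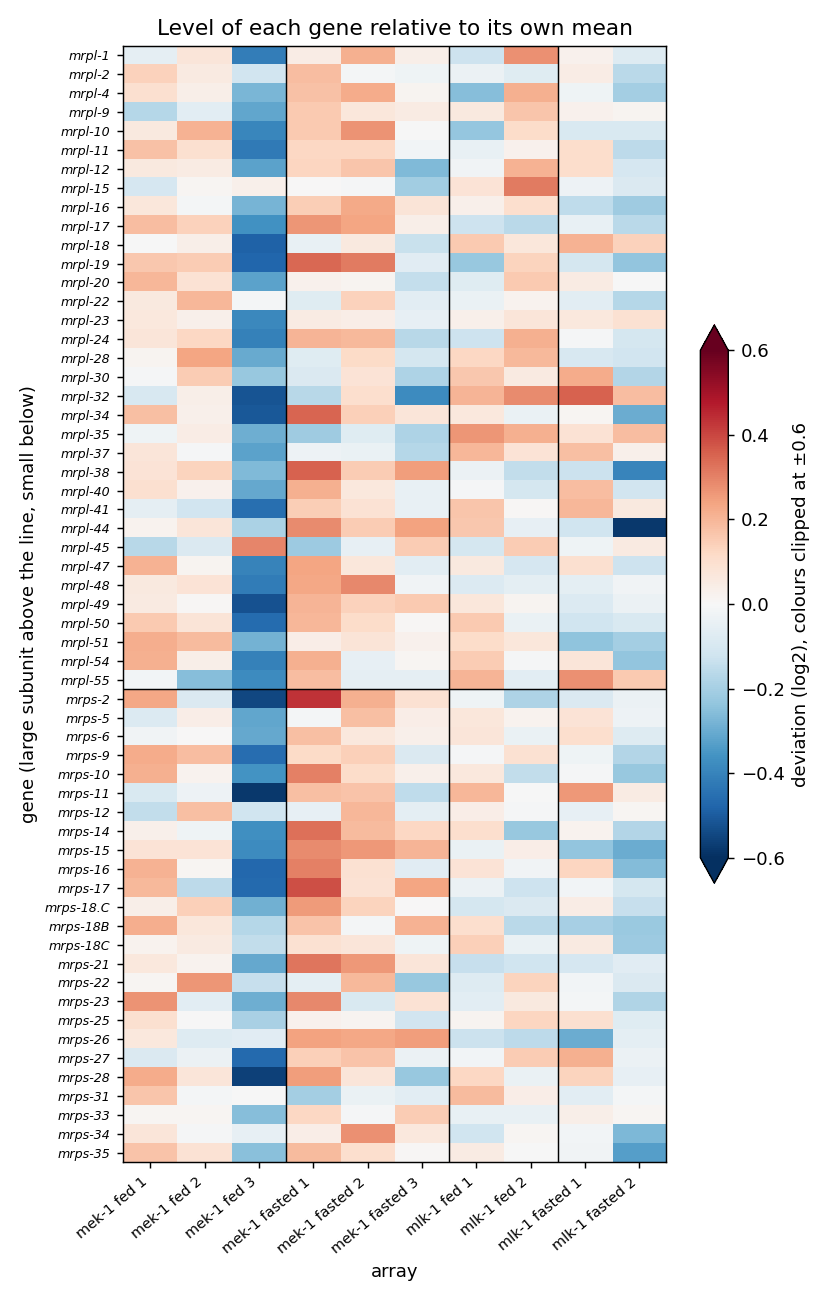
Deviation of each gene (rows, large subunit above the line and small subunit below) from its own mean over 10 arrays (columns), in log2 units with colours clipped at 0.6 either way. Blue fills most of the mek-1 fed 3 column, and mrpl-45 is the clear exception there.

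Averaged over both strains, the changes lay close to those of all probe sets. The mean fasting effect had a median of 0.048, against 0.037 for all probe sets, and 39 of 59 genes lay above 0 (61.9% of all probe sets). By limma 0 of 59 passed, where 7.90% of all probe sets did, and 1 passed at an unadjusted p of 0.05, mrps-31 at -0.15 ± 0.07 (22.2% of all probe sets). The 95% interval lay within 0.5 of 0 on the log2 scale for 58 of the 59 genes, so a mean change beyond that size was outside the interval of all but 1. Other contrasts were less precise, with 35 such genes for fasting in mek-1, 38 in mlk-1 and 10 for the difference of both effects. For the strain difference the counts were 41 in fed animals, 28 in fasted animals and 56 for the mean of both. All these intervals come from the fit without the pair numbers as a block. With the block the standard error for fasting in mek-1 went from 0.158 to 0.072 in mrps-11 and from 0.084 to 0.09 in mrps-31.

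The largest mean effects were mrps-2 (0.21 ± 0.14), mrps-17 (0.20 ± 0.12), mrpl-55 (0.19 ± 0.10), mrps-11 (0.18 ± 0.13) and mrps-21 (0.17 ± 0.09) above 0. With the pair numbers as a block mrpl-55, a mitochondria-specific large subunit gene, was called (limma adjusted p = 0.0469), 1 of 59 where 20% of all probe sets were called. Below 0 they were mrps-31, mrpl-15 (-0.15 ± 0.07), mrpl-51 (-0.15 ± 0.10), mrpl-28 (-0.13 ± 0.10) and mrpl-22 (-0.094 ± 0.071). With mek-1 fed 3 left out, the median was -0.027 and mrpl-51 was called lower in fasted animals (-0.23, limma adjusted p = 0.0283). That is 1 of 59, where 8.82% of all probe sets were called. Without the first mlk-1 fasted array the median was -0.001, and over the other 8 arrays left out in turn it ran from 0.019 to 0.083.

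Between the strains the clearest separation was in fasted animals. The values compared do not include mek-1 fed 3, but limma's estimate of the spread does. In 24 of 59 genes (40.7%) every mek-1 fasted value lay above every mlk-1 fasted value, against 12.7% of all probe sets, and in 5 (8.47%) every value lay below, against 16.8%. The 24 comprised 14 of the large and 10 of the small subunit, and the 5, mrpl-18, mrpl-23, mrpl-32, mrpl-35 and mrpl-37, were all of the large subunit. By limma 0 passed at an adjusted p of 0.05 (1.46% of all probe sets), and 10 passed unadjusted, 8 higher and 2 lower in mek-1 (10.8% of all probe sets). With arrays weighted by their spread 6 passed, all higher in mek-1, where 1.11% of all probe sets were called higher. The median difference was 0.12, with 44 of 59 above 0, against 50.1% of all probe sets. It was 0.068 without the second and 0.20 without the first mlk-1 fasted array. The summed intensity of 11 intestine markers also separated these groups, at 6516 to 7102 in mek-1 and 11508 to 11884 in mlk-1 fasted arrays. Of the 11, 2 (act-5 and ifb-2) were called lower in mek-1, and none was under 50 on every array. The markers did not move evenly. On the log2 scale mtl-1 read 10.32, 10.88 and 9.19 in mek-1 and 12.25 and 11.87 in mlk-1 fasted arrays. For asp-1 the values were 11.06, 10.37 and 11.66 against 10.94 and 11.03. The groups also overlapped in elt-2 and pgp-1. The part of the intestine list in the result was not tested.

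The gene mrps-26, a mitochondria-specific small subunit gene, came closest to the threshold. Beside the mek-1 fasted values of 161.8, 159.9 and 162.7 it read 105.7 and 128.2 in mlk-1 fasted arrays, and 120.9 and 118.7 in mlk-1 fed arrays. The difference in fasted animals was 0.42 ± 0.09 (n = 3 and 2, limma adjusted p = 0.065), and its range over the 10 arrays left out in turn was 0.30 to 0.54.

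The gene mrpl-44 read 1397.1, 1269.5 and 1355.8 in mek-1 fasted against 1049.7 and 762.5 in mlk-1 fasted arrays, a difference of 0.57 ± 0.14 (limma adjusted p = 0.111). Its other probe sets gave 0.18 ± 0.11 and 0.38 ± 0.14, the same sign at a smaller size. The gene mrps-15 differed by 0.52 ± 0.14 (adjusted p = 0.133). With mek-1 fed 3 left out of the fit, which changes the estimate of the spread and not this difference, mrps-15 passed (limma adjusted p = 0.014). That is 1 of 59, where 2.03% of all probe sets were called.

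The large subunit gene mrpl-38 read 1067.9, 923.8 and 992.4 in mek-1 fasted and 762.4 and 626.2 in mlk-1 fasted arrays, with no overlap. Its difference was 0.51 ± 0.14 (limma adjusted p = 0.15), and its other probe set gave 0.44 ± 0.15. The fifth in size was mrpl-19, shared with bacteria, at 0.37 ± 0.21 (adjusted p = 0.649).

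**Figure D4:**
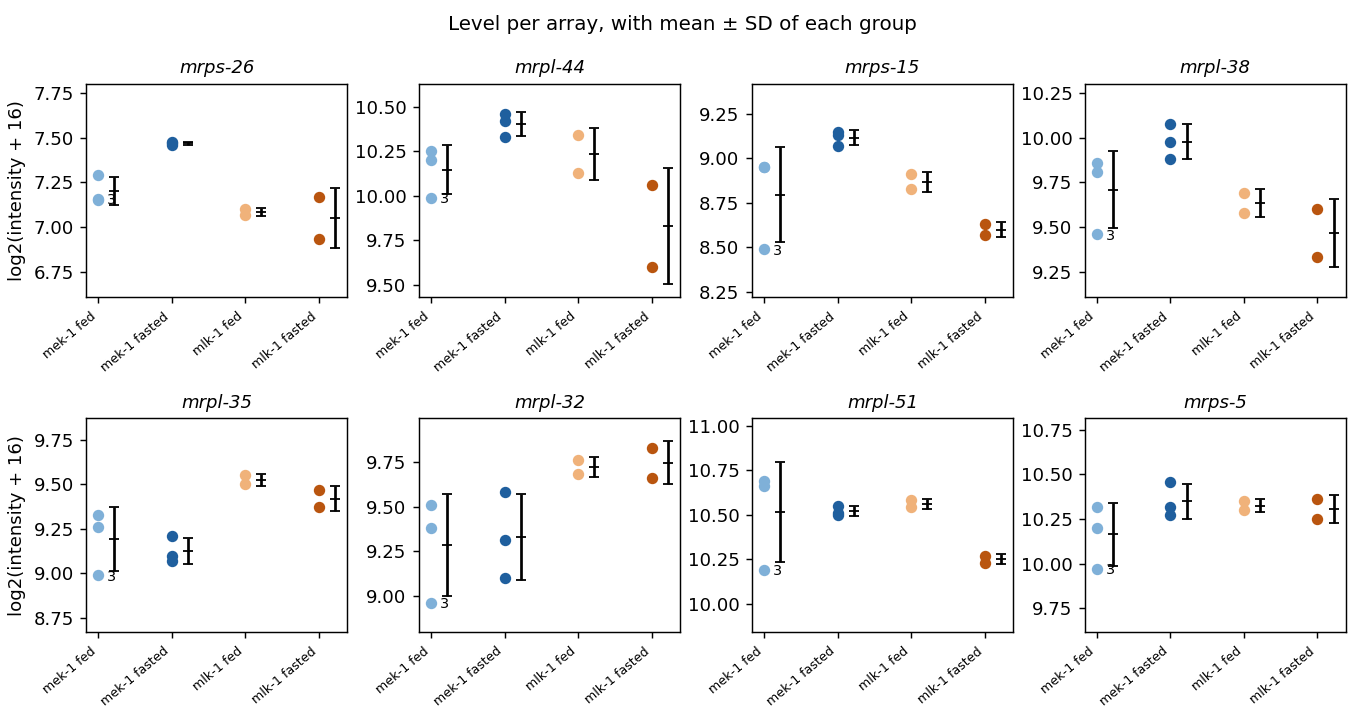
Level of 8 genes on each array (points, log2(intensity + 16)) by group (horizontal axis), with the mean ± SD of the group beside the points and the array mek-1 fed 3 marked 3. In mrps-26, mrpl-44, mrps-15 and mrpl-38 the mek-1 fasted points lie above both mlk-1 fasted points, and in mrpl-35 and mrpl-32 below them.

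The opposite direction was seen in mrpl-32 and mrpl-35, large subunit genes with names shared with bacteria. In mek-1 animals mrpl-35 read 597.2, 627.4 and 493.0 fed and 522.8, 576.0 and 532.2 fasted, and in mlk-1 animals 733.6 and 707.0 fed and 646.2 and 694.4 fasted. All 6 mek-1 values lay below all 4 mlk-1 values. Its mean strain difference over fed and fasted was -0.31 ± 0.08 (limma adjusted p = 0.0736), and that of mrpl-32, whose strains also did not overlap, was -0.43 ± 0.13 (adjusted p = 0.138).

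In fed animals 0 of 59 genes passed limma's test for the strain difference (0.603% of all probe sets), and 4 passed unadjusted, all lower in mek-1 (8.46% of all probe sets). The lowest values were mrpl-32 (-0.44 ± 0.18), mrps-11 (-0.33 ± 0.18), mrpl-35 (-0.33 ± 0.11), mrpl-41 (-0.30 ± 0.13) and mrpl-9 (-0.29 ± 0.09). The highest were mrpl-17 (0.13 ± 0.16), mrps-26 (0.11 ± 0.09), mrpl-22 (0.094 ± 0.10), mrpl-2 (0.079 ± 0.11) and mrps-18B (0.073 ± 0.13). The groups did not overlap in 9 genes with mek-1 lower (10.2% of all probe sets) and in 1, mrps-26, with mek-1 higher (9.88%). This balance turned over when mek-1 fed 3 was left out, with 16 genes apart and higher in mek-1 (27.1%, against 20.3% of all probe sets) and 9 lower (15.3%, against 16.9%). The median was -0.062, with 12 of 59 above 0 against 49.2% of all probe sets, and without mek-1 fed 3 it was 0.065, with 34 above 0. Without mek-1 fed 1 or fed 2 it was -0.17 and -0.12, and without the second mlk-1 fed array -0.098.

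Over both feeding states the mean strain difference had a median of 0.025 (37 of 59 above 0, against 50.7% of all probe sets) and 0 genes called by limma (3.05% of all probe sets), with 8 at an unadjusted p of 0.05 (14%). The positive values of largest size were mrpl-38 (0.29 ± 0.10), mrps-26 (0.27 ± 0.06, limma adjusted p = 0.0664), mrpl-44 (0.24 ± 0.10), mrps-15 (0.22 ± 0.10) and mrpl-17 (0.21 ± 0.11). Beside mrpl-32 and mrpl-35, the negative ones were mrpl-55 (-0.24 ± 0.10), mrpl-18 (-0.23 ± 0.11) and mrps-11 (-0.21 ± 0.13). The median was -0.012 without mek-1 fed 1, -0.003 without fed 2 and 0.001 without the second mlk-1 fasted array. Leaving out mek-1 fed 3 gave a median of 0.11, and mrps-15 was called (0.30, limma adjusted p = 0.0233). That is 1 of 59, where 3.45% of all probe sets were called.

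The gene mrps-5, named above for its part in lifespan, did not pass limma's test in any comparison. In mek-1 it read 1164.0, 1264.8 and 989.5 fed and 1221.3, 1388.5 and 1258.4 fasted, and in mlk-1 it read 1287.2 and 1242.8 fed and 1293.7 and 1198.5 fasted. All groups overlapped. Its change with fasting was 0.18 ± 0.10 in mek-1 (95% interval -0.047 to 0.41) and -0.022 ± 0.12 in mlk-1 (95% interval -0.30 to 0.26), with limma adjusted p of 0.396 and 0.981.

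Small subunit protein S18 has 3 gene copies in the list, as it also has several in mammals. With fasting in mek-1 their values were 0.083 ± 0.12 (mrps-18B), 0.070 ± 0.098 (mrps-18C) and 0.17 ± 0.12 (mrps-18.C), and in mlk-1 they were -0.18 ± 0.15, -0.13 ± 0.12 and 0.052 ± 0.15. None passed limma's test in any of these comparisons. In fasted animals mrps-18B read 1130.0, 991.5 and 1163.5 in mek-1 and 868.3 and 855.4 in mlk-1, with no overlap, a difference of 0.34 ± 0.13 (limma adjusted p = 0.382). The corresponding values were 0.13 ± 0.11 for mrps-18C and 0.18 ± 0.14 for mrps-18.C.

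The 59 genes varied together from array to array. As a description over 10 arrays that share their libraries, the median correlation between 2 of the genes was 0.55, and 0.70 once each group's mean was taken out. The same figures were 0.54 and 0.21 for 75 cytosolic ribosomal protein genes and 0.62 and 0.40 for 35 nuclear genes of the respiratory chain and ATP synthase. These figures include mek-1 fed 3, where the median deviation of the 59 genes was -0.32, against 0.065 and 0.036 on mek-1 fed 1 and fed 2. The part of that array in the correlations was not tested. With the mean of the other genes, mrpl-11 correlated at 0.96 and mrpl-34 at 0.95. The lowest were mrpl-45 (-0.80), mrps-31 (-0.13), mrpl-15 (0.024), mrpl-35 (0.20) and mrps-26 (0.30). The dim gene mrpl-45 read 42.4, 45.7 and 64.5 fed and 40.5, 47.5 and 56.8 fasted in mek-1, and 44.8 and 57.2 fed and 48.6 and 51.9 fasted in mlk-1, highest on the array where most others were lowest. Of all 59 genes only mrps-2 and mrpl-4 are direct neighbours in the genome. Their changes with fasting were 0.38 ± 0.18 and 0.19 ± 0.14 in mek-1, and 0.049 ± 0.22 and -0.097 ± 0.18 in mlk-1.

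Other genes that serve mitochondria gave a mixed picture beside the 59. The first list, of 13 measured genes, was drawn up for translation factors and ribosome assembly and also holds dap-3, rpom-1 and hmg-5. The second holds 12 mitochondrial aminoacyl-tRNA synthetases, the enzymes that charge transfer RNAs for this ribosome. In both, 0 passed limma's test for fasting in either strain or on average (1 and 0 at an unadjusted p of 0.05 for the mean effect). Their medians were 0.046 and 0.076 in mek-1 and -0.12 and -0.14 in mlk-1, the signs seen in the mitochondrial ribosomal protein genes. In fits that left out mek-1 fed 3 the mek-1 medians were -0.10 and -0.022. In the mean effect 1 gene of the first list was then called lower, where 8.82% of all probe sets were called. The 15 protein import genes had medians of 0.18 and 0.036 and the 12 genes of the mitochondrial unfolded protein response 0.092 and 0.028, in mek-1 and mlk-1, with 0 called in either list and 2 and 1 at an unadjusted p of 0.05 for the mean effect. Their mek-1 medians were 0.099 and 0.026 with mek-1 fed 3 left out.

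Nuclear genes of the respiratory chain and ATP synthase, whose products join those made by the mitochondrial ribosome, rose with fasting in 10 of 35 measured cases by limma's mean effect, and 0 fell (7.90% of all probe sets were called in either direction). Their median was 0.20 in mek-1 and 0.24 in mlk-1, and 34 of 35 lay above 0 on average. The largest among the called were ucr-2.1 (0.40 ± 0.08, limma adjusted p = 0.0194), a core subunit of complex III, cox-7C (0.35 ± 0.05, adjusted p = 0.0055), a subunit of cytochrome c oxidase, ucr-2.3 (0.33 ± 0.08) and asg-1 (0.30 ± 0.07), a subunit of ATP synthase. With the pair numbers as a block 24 of 35 were called higher (12.6% of all probe sets called higher), and with mek-1 fed 3 left out of the plain fit 6 (4.18% of all probe sets called higher). Of 75 cytosolic ribosomal protein genes 2 rose, rpl-10a (0.20 ± 0.05, limma adjusted p = 0.0487) and rps-13 (0.24 ± 0.06, adjusted p = 0.0436), a smaller share than that of all probe sets called, with a median of 0.11 and 74 above 0. With the block 6 of the 75 were called higher (12.6% of all probe sets), and with mek-1 fed 3 left out 1 (4.18%). In the mlk-1 strain the medians of these 2 lists were above 0 while that of the mitochondrial ribosomal protein genes was below it. The difference between the lists was not tested.

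**Figure D5:**
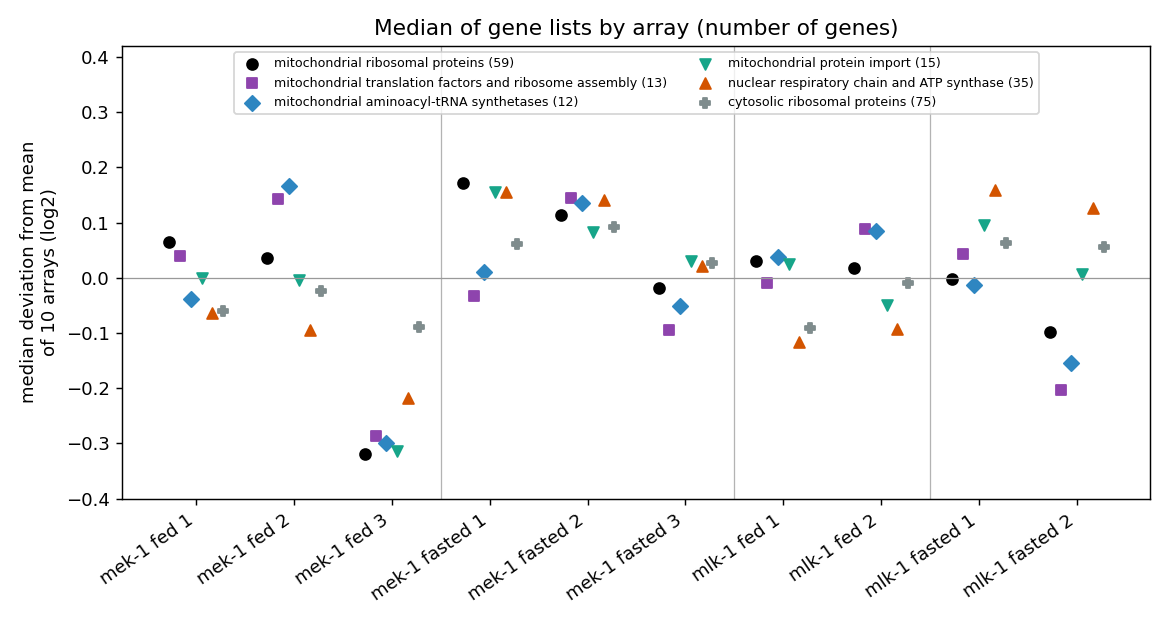
Median deviation of 6 gene lists from their own means over 10 arrays (vertical axis, log2) on each array (horizontal axis), with the number of genes of each list in the legend. On mek-1 fed 3 the lists of mitochondrial genes lie between -0.32 and -0.22 and the cytosolic ribosomal proteins at -0.089, and on the mlk-1 fasted arrays the respiratory chain list lies at 0.16 and 0.13, above the mitochondrial ribosomal proteins.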

How the data were processed

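Biotin-labelled RNA was made from total RNA by 3′ in vitro transcription, per the labels' protocols. The deposited table holds 1 linear intensity for each probe set on each array. The methods of summary and normalization are not given in the sources used here. Every array's lowest value lies just above 16. All 10 columns matched a sample's title, and 0 columns were left without a sample. Of 22625 probe sets, 77 array controls were left out. The other 22548 comprise 20766 with 1 gene symbol in the platform annotation, 887 with several and 895 with none. All 59 symbols match the current RefSeq annotation (assembly WBcel235), used only for names and neighbours.

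Intensities were taken to log2(value + 16), with no further normalization. The means of the 4 groups were estimated from all 10 arrays by limma 3.58.1 in R 4.3.3 (lmFit and eBayes, 6 residual and 2.90 prior degrees of freedom), with 7 contrasts, two-sided, and Benjamini-Hochberg adjustment over all tested probe sets at 0.05. Errors of changes are limma's standard errors from this fit, which does not use the replicate number. Fits were tested on simulated data. Figures used matplotlib 3.10.9 in Python 3.11.15. The number of arrays limits precision.

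Over all probe sets, the deviations of same-numbered mek-1 arrays from their group means had correlations of 0.440, 0.675 and 0.573, so the numbers, given in the titles, were taken to pair them. Within mlk-1 the value was 0.352.

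The genes, the other lists and the tests were chosen with earlier results of these data known. Where fewer than 5 genes passed in a contrast, the 5 largest increases and 5 largest decreases are named, along with mrps-5 and the S18 copies. From other lists up to 4 genes past the threshold are named. The genes mrpl-4, mrpl-11 and those in counts of groups or pairs were named after their values were seen.

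Alternatives were other constants (0, 1 and 64), normalization by quantiles or by the median, a filter on the lowest 30% of probe sets, a trended and robust variance, array weights, only the groups compared, the replicate number as a block, 1 probe set or the mean per gene, no _s_at or _x_at probe sets, and leaving out each array. Leaving out both mek-1 arrays numbered 3, and counts without mek-1 fed 3, were chosen after seeing the data. Of the 59 probe sets, 14 have IDs ending in _s_at, which can hybridise to several transcripts, and 2 probe sets shared with another gene were not used.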

Additional observations from a re-analysis of the deposited data

How the results depend on the processing

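Over 24 settings the median change of the 59 genes moved in no contrast by more than the spread of array medians (pooled SD 0.14). That spread is wide beside these medians and includes mek-1 fed 3, so it cannot judge moves made by leaving that array out. Without it the median went from 0.15 to 0.014 for fasting in mek-1 and from 0.22 to 0.097 for the difference of fasting effects. Between strains in fed animals it went from -0.062 to 0.065. The number of genes called stayed at 0 in every setting for fasting in mlk-1, the difference of fasting effects and the strain difference in fed animals. In what follows the share of all probe sets called in the same setting stands in brackets. For fasting in mek-1 it was 1 with array weights (mrpl-9, 10.1%) and 5 with the replicate block (14.5%). For the mean fasting effect it was 1 with the replicate block (20%) and 1 without both mek-1 arrays numbered 3 (11.5%). Over arrays left out in turn it was 0 to 1, with the 1 found without mek-1 fed 3 (8.82%). For the strain difference in fasted animals it was 2 with quantile normalization (1.52%), 6 with array weights (4.34%) and 1 with only the groups compared (1.29%). With the replicate block it was 7 (4.58%, and 1.75% higher in mek-1), and without both arrays numbered 3 it was 1 (1.27%). Over arrays left out it was 0 to 1, with the 1 found without mek-1 fed 3 (2.03%). For the mean strain difference it was 1 with a constant of 64 (2.70%), 2 with quantile normalization (both lower in mek-1, 3.44%) and 4 with array weights (4.87%). With the replicate block it was 3 (6.67%, and 3.01% higher in mek-1), and without both arrays numbered 3 it was 3 (3.30%). Over arrays left out it was 0 to 1, with the 1 found without mek-1 fed 3 (3.45%). The 7 genes called with the block in fasted animals, all higher in mek-1, were mrps-15 (limma adjusted p = 0.0221), mrpl-44 (0.0314), mrpl-38 (0.0335), mrpl-19 (0.0463), mrps-26 (0.0482), mrpl-16 and mrps-21. The labels tie samples of the 2 strains by the number alone. Same-numbered arrays correlated at 0.298 and 0.150 (fed) and 0.326 and 0.157 (fasted) in their deviations from group means, but with 2 mlk-1 arrays a group the crossed pairings of numbers 1 and 2 are these values with the sign turned. The cause of these moves was not tested. Among single genes the sign turned as follows. For fasting in mek-1, mrpl-15 was 0.021 with array weights, 0.042 without both arrays numbered 3 and -0.09 to 0.018 over arrays left out, mrpl-35 was -0.17 to 0.001 and mrps-22 -0.19 to 0.035. For fasting in mlk-1, mrpl-18 was -0.022 and mrps-11 -0.018 with quantile normalization, and over arrays left out in turn mrps-11 was -0.052 to 0.16, mrpl-40 -0.059 to 0.24 and mrps-5 -0.077 to 0.032. For the difference, mrpl-45 was 0.007 without both arrays numbered 3 and -0.17 to 0.10 over arrays left out, and mrps-31 was 0.033 with median centring and -0.083 to 0.073. Between strains, mrps-5 was 0.002 with the replicate block and without both arrays numbered 3 (mean difference) and -0.007 to 0.10 (fasted), and mrps-18B was -0.057 to 0.20 (fed). Dim signal limits mrps-31 and mrpl-45.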
